A study of Mus musculus with 3 samples.

Results

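The nuclear genes of oxidative phosphorylation were followed by name through complexes I to V of the inner mitochondrial membrane. Array gene names starting with Ndufa, Ndufb, Ndufc, Ndufs, Ndufv, Sdh, Uqcr, Cox4, Cox5, Cox6, Cox7, Cox8 or Atp5 were taken, and Ndufaf names, which belong to assembly factors, were left out. The rule found 131 probes with 88 gene names among the 39429 probes and 30175 gene names of the array. Of these probes 52 belonged to complex I, 8 to complex II, 15 to complex III, 25 to complex IV and 31 to complex V. By role, 82 of the 88 names are subunits. The other 6 names that the rule takes in are Sdhaf1, Sdhaf2 and Atp5sl (assembly factors), Cox7a2l (a factor of respiratory supercomplexes), Atp5s (coupling factor B) and Cox4nb, now Emc8, which is a neighbour of Cox4i1 and no subunit. Leaving these 6 out left 121 tested probes, with a median ratio of 0.07, against 0.06 with them.

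RNA came from mouse embryoid bodies, floating aggregates in which embryonic stem cells differentiate, grown in suspension for 10 days on low-attachment plastic, with the cytokine LIF left out. The mutant+CT embryoid bodies (Dido3deltaCT+HADido3CT in the labels) carry a Dido3 protein cut short at its C terminus and overexpress the lost CT region, which exon 16 encodes. The wild-type embryoid bodies ("Wildtype control") were cultured in parallel. Each of 3 two-colour arrays held 1 mutant+CT and 1 wild-type RNA, called biological replicates 1, 2 and 3, with mutant+CT in Cy3 (green) on replicates 1 and 3 and in Cy5 (red) on replicate 2. No group carried the truncation alone or the construct alone, so their effects cannot be told apart, and the promoter of the construct and the number of clones are not given in the sources used here. The comparison asks which transcripts differ between the 2 kinds of embryoid body. The series title places it in the balance of self-renewal and differentiation. An embryoid body holds many cell types, so in these bulk RNAs fewer cells of a type and less RNA per cell cannot be told apart.

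Complexes I and II pass electrons from NADH and succinate to ubiquinone, complex III passes them on to cytochrome c, and complex IV hands them to oxygen. Complexes I, III and IV pump protons, and the gradient drives ATP synthase. A few subunits are encoded by mitochondrial DNA, whereas the genes described here are nuclear, and some complex IV subunits exist as pairs of a ubiquitous form and a form found in heart, skeletal muscle, lung or testis. Pluripotent stem cells draw much of their ATP from glycolysis, and differentiation into cardiomyocytes is known to come with more mitochondrial respiration.

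Each ratio is the log2 of mutant+CT over wild type on 1 array, and means are given ± SD over the 3 arrays (n = 3). Channel values are normalized log2 intensities of 1 probe and are set only against the other channel of the same probe. A probe was tested when it was well above local background on all 3 arrays in mutant+CT or on all 3 in wild type, and 129 of the 131 probes were, of 26317 tested in all. The exceptions were Cox8b, the heart and muscle form of subunit 8, and 1 of 4 probes for Ndufb5. Of the 129, 128 were well above background in both channels of all arrays, and Cox8c had 2 of 3 wild-type channels above it. Across whole arrays, 69.0% to 78.5% of spots were well above background in mutant+CT and 68.1% to 76.4% in wild type, and 0 spots were saturated. Of 4 probes for the targeted gene, Dido1, 1 passed the test, with a ratio of 3.53 ± 0.12 (limma, adjusted p = 0.0435). The others had ratios of 1.79 ± 0.33, -2.39 ± 1.29 and 0.77 ± 0.80, and where any of them lies relative to exon 16 was not determined, so they do not check the genotype. Marker lists of other cell types had medians of 1.59 for naive pluripotency (20 tested genes) and -2.24 for neural progenitors (13). Those for visceral endoderm (15) and erythroid cells (9) had medians of 1.10 and -0.66. In each of these lists 0 genes passed the test, and the part of these cell types in the members' values was not tested.

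Several results turn on single probes, so the first 30 of the 60 bases of these probes are shown, 5′ to 3′, as the scanner files list them, with adenines in capitals because the colour of a probe went with its adenine content.
Cox7c A_55_P1999838 (chr13:86184447-86184506, minus strand, mm9): AAAgtttAAgAgAtgAtctgAAAAttggAt
Cox7c A_55_P2081005 (chr13:86184403-86184462, minus strand, mm9): cttAtActAgAAAAAAttgtAAAtAAActA
Cox7c A_55_P1999841 (chr13:86186301-86186360, minus strand, mm9): tgtAgAAAggAgAgttAggtggtAcggccA
Ndufb11 A_55_P2073582 (chrX:20194630-20194689, minus strand, mm9): ttccctAcAgggccAtctAgAtgtcAccgc
Ndufb11 A_55_P1980566 (chrX:20192453-20192512, minus strand, mm9): tcAtccgctgcttgttAtttAcctggttcc
Sdhaf1 A_51_P338728 (chr7:31106594-31106653, minus strand, mm9): AgActttttgccgcgctcgtttAAtAgAAt
Cox6a1 A_51_P311540 (chr5:115795726-115795785, minus strand, mm9): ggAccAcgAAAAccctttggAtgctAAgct
Cox6a2 A_51_P509997 (chr7:135349160-135349219, minus strand, mm9): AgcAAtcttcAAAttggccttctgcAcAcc
These coordinates are those of the scanner files. Gene models of mm9 were not used here, and the exon or UTR that holds each probe was not determined.

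No oxidative phosphorylation probe passed the test. Of 129 tested, 0 had an adjusted p under 0.05 (limma's moderated test with Benjamini-Hochberg adjustment over all 26317 probes), where 0.437% of all probes did, 87 of them (0.331%) higher and 28 (0.106%) lower in mutant+CT. At adjusted p under 0.1 the count was again 0, against 2.56% of all probes. At unadjusted p under 0.05 it was 2 (Ndufb11 and Sdhaf1, both lower in mutant+CT), against 16.5% of all probes. A ratio of at least 2-fold in one direction on every array was seen for 0 members, against 3.02% of all probes.

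The ratios of the members were small. Their median was 0.06, with array medians of 0.15, -0.19 and 0.17 on replicates 1, 2 and 3, and their means ran between -1.23 (Ndufb11) and 0.61 (Cox4nb). The median over all tested probes was -0.01. Only 1 member had a mean beyond 1 in either direction, against 10.0% of all probes, and 10 had a mean beyond 0.5, against 30.0%. Most members gave bright spots, and 112 of the 129 had a mean log2 intensity of 12 or more. Among all 5587 probes that bright, 5.30% had a mean beyond 1 and 20.8% a mean beyond 0.5, whereas 0 and 4 of the 112 members did. Of those bright probes 0.0716% passed the test. The median size of a mean ratio, sign left aside, was 0.18 over the 129 members, 0.24 over the 5587 bright probes and 0.29 over all tested probes. The median standard error in limma was 0.25 for members and 0.26 for all probes, so differences of this size in a single gene lie within the error of 3 arrays.

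Few members kept one direction on every array. Of the 129, 14 were higher in mutant+CT on all 3 arrays, against 20.4% of all probes, and 16 were lower, against 18.1%. Together these were 23.3% of members, against 38.5% of all probes and 31.6% of bright ones. Because replicate 2 has the dyes swapped, a probe brighter in the same dye on every array cannot keep one direction. Such probes were 51.9% of members, against 32.8% of all probes. For 6 members all mutant+CT channels lay above all wild-type channels, against 9.10% of all probes, and for 3 all lay below, against 6.84%. That is 9 of 129 members without overlap between the groups, against 15.9% of all probes. The 6 were Ndufab1, Ndufc2, Ndufv1, Cox4nb, 1 of the Cox5b probes and 1 of the Atp5g1 probes, and the 3 were Ndufa13, Sdhaf1 and 1 of the Ndufb11 probes. Of 29 genes with several tested probes, 0 had all of them in one direction on every array. The share over all genes of the array with several probes was not computed, so this count has no background beside it.

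**Figure D1:**
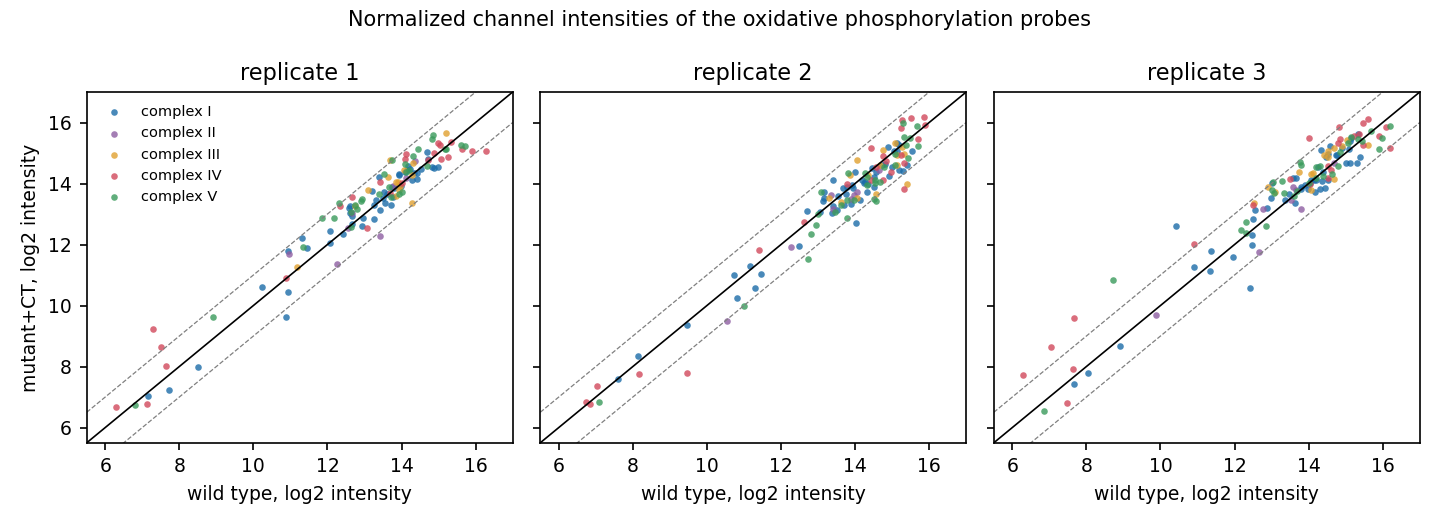
Normalized log2 intensity of each tested oxidative phosphorylation probe in mutant+CT (vertical) against wild type (horizontal), 1 panel per array, coloured by complex, with equality as the solid line and 2-fold differences as dashed lines. Most probes lie within the dashed lines on each array, and the median ratio of the 129 probes was 0.15, -0.19 and 0.17 on replicates 1, 2 and 3.

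Complex I, the NADH dehydrogenase, had the median nearest to 0, at -0.02 over 51 tested probes of 38 genes, with array medians of 0.02, -0.12 and 0.06. The 7 nuclear core subunits, which bind the flavin and the iron-sulphur clusters, had 8 probes with a median of -0.11 and means from -0.25 to 0.35. The 31 other genes of the complex, the accessory subunits, had a median of 0.02 over 43 probes. In the core, 1 probe was higher and 1 lower on every array. Ndufv1, the subunit that binds NADH, was the higher one, with channel values of 14.32, 14.36 and 14.53 in mutant+CT on replicates 1, 2 and 3, against 13.93, 13.99 and 14.25 in wild type. All mutant+CT channels lay above all wild-type channels, and the ratio was 0.35 ± 0.06, with an adjusted p of 0.492 in limma. Ndufs7, a core subunit that carries an iron-sulphur cluster next to the ubiquinone site, was the lower one, at -0.25 ± 0.13.

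Among the accessory subunits, the probe with the smallest p was Ndufb11 A_55_P2073582, for an X-linked subunit of the membrane arm. Its channel values were 9.62, 10.25 and 10.56 in mutant+CT, against 10.89, 10.81 and 12.42 in wild type. The highest mutant+CT channel was below the lowest wild-type channel, and the ratio was -1.23 ± 0.65, a 2.34-fold lower mean, with -1.27, -0.56 and -1.86 on the arrays. In limma the unadjusted p was 0.0095 and the Benjamini-Hochberg adjusted p was 0.154. The other Ndufb11 probes, whose spots were brighter, did not share this difference. They overlap each other, starting at 20192448 and 20192453, and lie 3′ of the lower probe on the minus strand, which starts at 20194630. Their ratios were -0.21 ± 0.23 and -0.24 ± 0.29 (limma, adjusted p = 0.720 and 0.698). Ndufb11 was the 1 gene whose tested probes differed by more than 1 in mean ratio, and 4 genes (Ndufb11, Ndufb5, Cox7c and Ndufv3) had probes that differed by more than 0.5.

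A few accessory subunits that kept one direction were picked after their values were seen, most of them with ratios that were nearly equal on all arrays. Ndufs4, a subunit of the peripheral arm whose loss in the mouse causes a Leigh-like encephalopathy, had channel values of 13.31, 13.71 and 13.81 in mutant+CT, against 13.71, 14.31 and 14.29 in wild type. The channels of the groups met at 13.71, but on each array mutant+CT was lower, with a ratio of -0.50 ± 0.10 (limma, adjusted p = 0.335). Ndufa13, also known as GRIM-19, had 14.55, 14.55 and 14.87 in mutant+CT, against 14.98, 15.00 and 15.38 in wild type. All its mutant+CT channels were below all its wild-type channels, and the ratio was -0.47 ± 0.05 (limma, adjusted p = 0.356). Ndufab1, the mitochondrial acyl carrier protein, went the other way at 0.49 ± 0.31 (limma, adjusted p = 0.391), with less equal ratios of 0.85, 0.27 and 0.35. For Ndufb5, a membrane-arm subunit, 1 probe was at -0.42 ± 0.05 and another at -0.13 ± 0.11, both lower on every array. The remaining tested probe was at 0.31 ± 0.85, so the Ndufb5 probes did not share a direction.

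Complex II, succinate dehydrogenase, which also serves the tricarboxylic acid cycle, had a median of -0.04 over 8 probes, with array medians of 0.09, -0.34 and -0.02. Its 4 subunit genes, Sdha to Sdhd, had means between -0.50 for 1 of the Sdhc probes and 0.13 for 1 of the Sdhb probes, and none kept one direction on every array. That Sdhb probe, for the iron-sulphur subunit, had 0.38, -0.38 and 0.39 on the arrays, a mean of 0.13 ± 0.44 (limma, adjusted p = 0.870). The lowest probe of this group belonged to the assembly factor Sdhaf1, which helps to place iron-sulphur clusters in Sdhb. Its channel values were 11.38, 11.91 and 11.75 in mutant+CT, against 12.26, 12.27 and 12.67 in wild type. The channels did not overlap, and the ratio was -0.72 ± 0.31, or 1.65-fold lower. In limma it had an unadjusted p of 0.026 and an adjusted p of 0.229. Sdhaf2, the factor that attaches flavin to Sdha, had ratios of 0.72, -1.03 and -0.18 and so no common direction.

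Complex III, ubiquinol-cytochrome c reductase, had a median of 0.14 over 15 probes of 8 genes. Its array medians were 0.21, -0.08 and 0.38, and 12 of the 15 means were above 0. The core proteins Uqcrc1 and Uqcrc2 were at -0.03 ± 0.38 and 0.05 ± 0.18. The Rieske iron-sulphur protein Uqcrfs1 averaged -0.07 but spread widely, with 0.71, -1.43 and 0.52 on the arrays. The highest mean was that of the hinge protein Uqcrh, with channel values of 14.78, 14.97 and 15.24 in mutant+CT, against 13.68, 15.33 and 14.90 in wild type. At this probe mutant+CT was higher on replicates 1 and 3 and lower on replicate 2, and the mean was 0.36 ± 0.73 (limma, adjusted p = 0.669). The other Uqcrh probe had 0.47, 0.26 and -0.33, a mean of 0.13 ± 0.42, and so was lower on replicate 3 instead. The lowest mean was that of 1 of 3 probes for the small subunit Uqcr10, at -0.25 ± 0.86, while its other probes were at 0.10 ± 0.24 and 0.19 ± 0.42. Uqcr11, a small subunit, had 1 probe with nearly equal ratios of 0.21, 0.25 and 0.22 on the arrays. The other Uqcr11 probe had 0.36, -0.07 and 0.34, and so did not keep one direction.

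Complex IV, cytochrome c oxidase, had a median of 0.16 over 24 tested probes of 18 genes, with array medians of 0.10, -0.02 and 0.42. Its nuclear subunits surround the catalytic core that mitochondrial DNA encodes. Cox5a, an early partner in its assembly, had channel values of 15.26, 15.80 and 16.00 in mutant+CT, against 15.05, 15.23 and 15.48 in wild type. Mutant+CT was the higher channel on every array, although the groups overlapped, and the ratio was 0.44 ± 0.20 (limma, adjusted p = 0.409). Cox5b, a zinc-binding subunit, was at 0.46 ± 0.48 for 1 probe and 0.46 ± 0.28 for the other. That other probe lies on chr15 in the files while RefSeq places Cox5b on chromosome 1, so the sequence it reads is uncertain.

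The probe with the smallest p in the complex IV names was Cox4nb, whose current symbol is Emc8. Emc8 belongs to the endoplasmic reticulum membrane complex and lies beside Cox4i1. It had 13.27, 12.73 and 13.30 in mutant+CT, against 12.34, 12.62 and 12.51 in wild type, without overlap, and a ratio of 0.61 ± 0.44 (limma, unadjusted p = 0.062, adjusted p = 0.333). The lowest probe was Cox6a1, the ubiquitous form of subunit 6a, which is described with the isoforms. Cox7a2l, which joins complexes III and IV into supercomplexes, had 3 probes at -0.24 ± 0.04, -0.12 ± 0.17 and -0.07 ± 0.21.

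**Figure D2:**
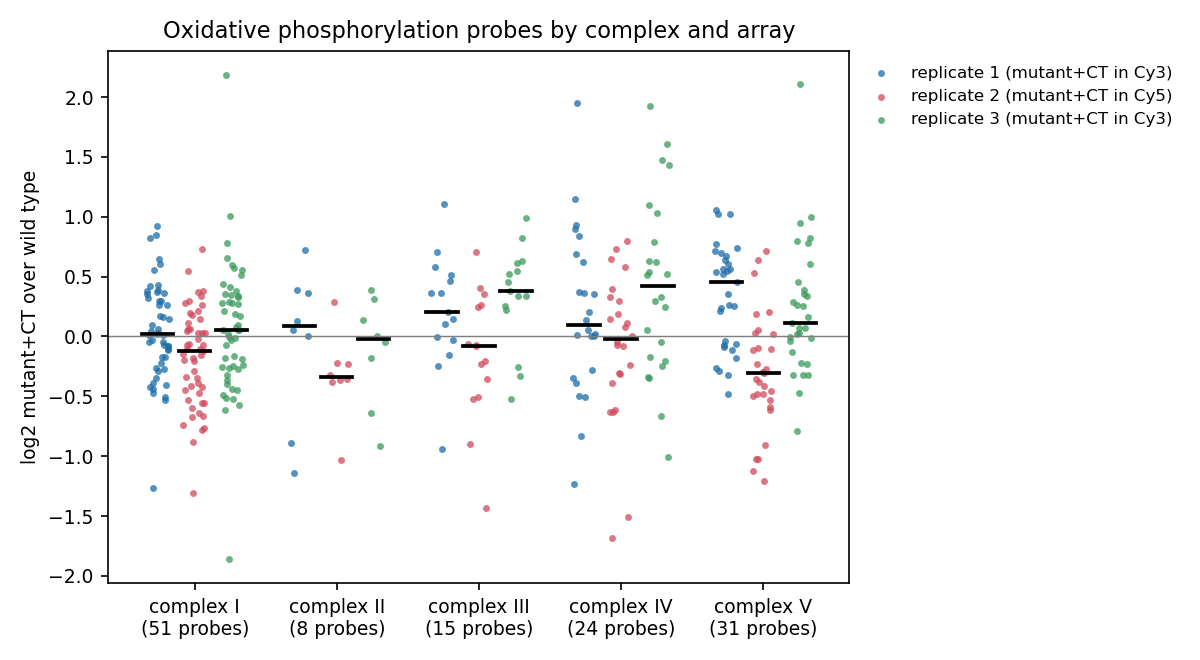
Log2 ratio of mutant+CT over wild type for every tested probe, by complex and by array, with array medians as black bars. The bars of replicate 2 lie below those of replicates 1 and 3 in each complex, at -0.30 against 0.46 and 0.11 in complex V.

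Complex V, ATP synthase, had a median of 0.10 over 31 probes of 17 genes, with array medians of 0.46, -0.30 and 0.11. The catalytic F1 head (Atp5a1, Atp5b, Atp5c1, Atp5d and Atp5e) had 6 probes with a median of 0.05 and array medians of -0.09, -0.03 and -0.02. The 25 probes of the 12 other names had a median of 0.10 and array medians of 0.54, -0.35 and 0.17. These names cover the stalks and the membrane part, with factor B (Atp5s) and the assembly factor Atp5sl, now Dmac2, counted here by name. Atp5b, the catalytic beta subunit, had 15.14, 15.99 and 15.89 in mutant+CT, against 15.20, 15.28 and 16.21 in wild type. It was higher in mutant+CT on replicate 2 alone, with a mean of 0.11 ± 0.54 (limma, adjusted p = 0.903).

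The rotor ring of ATP synthase is built from identical c subunits that 3 genes encode, Atp5g1, Atp5g2 and Atp5g3, which differ in their import sequences. Atp5g1 had the smallest p in the complex. Its probe A_55_P1956064 read 13.16, 13.73 and 13.68 in mutant+CT, against 12.80, 13.09 and 13.08 in wild type, without overlap, a ratio of 0.53 ± 0.15 (limma, unadjusted p = 0.054, adjusted p = 0.312). Its other probe read 15.12, 14.97 and 15.53 in mutant+CT, against 14.44, 15.07 and 15.14 in wild type. There mutant+CT was lower on replicate 2, and the ratio was 0.32 ± 0.39 (limma, adjusted p = 0.605). Atp5g2 A_55_P2081483 was lower on replicates 1 and 3, with -0.48, 0.21 and -0.47, a mean of -0.25 ± 0.39. The other Atp5g2 probe had -0.04, -0.46 and 0.11, a mean of -0.13 ± 0.30, and so did not share this order. Atp5g3 had 0.74, 0.03 and 0.03, a mean of 0.27 ± 0.41.

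The extremes of complex V were a small membrane subunit and an accessory factor. Atp5j2, the f subunit, was the lowest at -0.31 ± 0.49, with -0.32, 0.19 and -0.79 on the arrays (limma, adjusted p = 0.655). Atp5s, or factor B, was the highest at 0.60 ± 1.57 (limma, adjusted p = 0.697). It had 9.63, 9.98 and 10.84 in mutant+CT, against 8.92, 11.01 and 8.73 in wild type, so mutant+CT was higher on replicates 1 and 3 and lower on replicate 2. The files place 2 of the 3 Atp5k probes (the e subunit) on chrY, while RefSeq has the gene on chromosome 5. Those probes were at -0.20 ± 0.19 and -0.16 ± 0.14, and the probe on chromosome 5 was at 0.01 ± 0.27. Ddx3y, a Y-linked RNA helicase, was well above background in 1 of 3 mutant+CT channels and all wild-type channels, at -4.01 ± 1.18 (limma, adjusted p = 0.0523). Whether the Atp5k probes placed on chrY read a copy there was not tested.

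Tissue forms were set against their ubiquitous counterparts on each array, in 8 pairs. The ratio of the counterpart was subtracted from that of the tissue form, and the differences of the 3 arrays were tested with an exact permutation test that flips their signs (two-sided, smallest possible p = 0.25, so it cannot pass a threshold of 0.05). In 1 pair the tissue form, Cox8b, was mostly not above background, and its difference is not described. The mean difference was above 0 in the other 7 pairs, but 0 of them had differences above 0 on every array. Among the tissue forms of these pairs, Cox8c had been kept through its mutant+CT channels alone. For Cox4i2 the mean difference was below 0 when replicate 1 (-0.33) or replicate 3 (-0.18) was left out or the dye was modelled (-0.25), and for Ndufa4l2 without replicate 3 (-0.40). The exact permutation p-values were 0.5, 0.75 or 1 and, adjusted over the 8 pairs by Benjamini-Hochberg, 0.8 or 1.

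Cox6a2, the form of subunit 6a in heart and skeletal muscle, gave the widest difference. It had channel values of 9.23, 6.83 and 6.82 in mutant+CT, against 7.28, 6.75 and 7.48 in wild type. Mutant+CT was far higher on replicate 1, near equal on replicate 2 and lower on replicate 3, with ratios of 1.95, 0.08 and -0.66 and a mean of 0.46 ± 1.35 (limma, adjusted p = 0.745). Apart from 9.23, these channels were dim, though well above background, so the order on replicates 2 and 3 is uncertain. Cox6a1, the ubiquitous form, had 15.05, 16.17 and 15.18 in mutant+CT, against 16.28, 15.87 and 16.18 in wild type. There mutant+CT was lower on replicates 1 and 3 and higher on replicate 2, with -1.23, 0.29 and -1.01 and a mean of -0.65 ± 0.82 (limma, adjusted p = 0.449). The Cox6a1 probe was thus brighter in red on every array, and the part of the dye in its ratio was not tested. Cox6a2 minus Cox6a1 was 3.18, -0.22 and 0.34, a mean of 1.10 ± 1.82 (exact permutation p = 0.5).

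The other heart and muscle forms did not share one course. Cox8b, which was not well above background except in 1 mutant+CT and 1 wild-type channel and was therefore not tested, had 7.45, 6.08 and 6.02 in mutant+CT, against 6.46, 5.96 and 6.43 in wild type. At this level the order of its channels cannot be read. Cox7a1, the heart and muscle form of subunit 7a, had 10.89, 11.81 and 12.02 in mutant+CT, against 10.87, 11.42 and 10.92 in wild type. It was higher in mutant+CT on every array, by the most on replicate 3, with 0.02, 0.40 and 1.10 and a mean of 0.51 ± 0.55 (limma, adjusted p = 0.459). Cox7a1 minus Cox7a2, its ubiquitous counterpart, averaged 0.48 ± 0.72.

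The median ratio of cardiomyocyte markers fell from replicate 1 to replicate 3, as the ratio of Cox6a2 did, but single markers did not all share this order. Tnni3, for example, had 1.87, -0.40 and 0.14, and Ryr2 had 0.59, -1.43 and 0.95. Of 21 listed cardiomyocyte genes, 19 were tested and 0 passed. Their median ratio was 2.24 on replicate 1, -0.45 on replicate 2 and -0.73 on replicate 3. Their summed intensity ranged from 15705 to 107470 over the mutant+CT samples and from 26699 to 59541 over the wild-type samples, and 0 of the tested markers were below background in all channels of a group. On replicate 1, Myl2, a ventricular myosin light chain, had a ratio of 5.06 and Myh6, the atrial-type myosin heavy chain, one of 4.12. The tested markers below 0 on that array were Gata4 (-0.70), Myl3 (-0.39) and Nppb (-0.03). The skeletal muscle list, of which 8 of 15 genes were tested and 0 passed, had medians of 1.04, 0.36 and 1.00. Myod1, Myog, Myf5 and Myf6, the myogenic factors, were not among the tested genes. The part of either cell type in the values of Cox6a2 and Cox7a1 was not tested.

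Forms known from testis had their highest ratio on replicate 3. Cox7b2, the testis form of subunit 7b, had 6.78, 7.36 and 8.65 in mutant+CT, against 7.13, 7.03 and 7.05 in wild type, and ratios of -0.35, 0.33 and 1.60, a mean of 0.53 ± 0.99. Cox8c, the testis form of subunit 8, had 6.67, 6.77 and 7.73 in mutant+CT, against 6.30, 6.84 and 6.30 in wild type, and ratios of 0.37, -0.07 and 1.43, a mean of 0.58 ± 0.77. Cox8c passed the filter through mutant+CT alone, as 2 of its 3 wild-type channels were well above background, so its higher ratio is only a description. With Agilent's processed signals the mean of Cox8c was 1.59, and without replicate 3 it was 0.15. Cox7b2 and Cox8c were higher in mutant+CT on replicate 3 and closer to wild type on the others, and their adjusted p-values in limma were 0.600 and 0.485. Both were dim, and Cox8c was the dimmest tested member, with a mean log2 intensity of 6.77, so the order of their lower channels is uncertain. Cox6b2, the testis form of subunit 6b, had -0.51, 0.19 and 0.63, a mean of 0.11 ± 0.58. Against their counterparts Cox7b, Cox8a and Cox6b1 the mean differences were 0.46 ± 0.86, 0.59 ± 1.34 and 0.43 ± 0.82. Without replicate 3 these differences were 0.011, 0.00088 and 0.15.

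Markers of the male germ line and of naive pluripotency were also highest on replicate 3. The 20 naive pluripotency markers had median ratios of 0.85, 1.08 and 2.47 on replicates 1, 2 and 3, and their summed intensity ranged from 217010 to 658720 over the mutant+CT samples and from 100710 to 130850 over the wild-type samples. Of 13 listed germ-line genes 9 were tested and 0 passed, and their median ratios were 0.31, 0.56 and 3.14 on replicates 1, 2 and 3. Their summed intensity ranged from 5395 to 31933 over the mutant+CT samples and from 3759 to 11157 over the wild-type samples. On replicate 3, Dazl had a ratio of 3.89 and Ddx4 one of 3.31, both genes of early germ cells. Tex101 (3.97), Mael (3.78), Sycp3 (3.14), Ldhc (2.34) and Stra8 (1.15) were higher in mutant+CT there too. Tnp1 had 0.09 and Prm2, a protamine of spermatids, had -0.18. Sycp1 was not among the tested genes, nor were Prm1, Acrv1 and Pgk2, which mark later male germ cells. The part of germ-line or pluripotent cells in the values of Cox7b2, Cox8c and Cox6b2 was not tested.

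Ndufa4l2 and Cox4i2 are the forms known to be induced by low oxygen, Cox4i2 mainly in lung. Ndufa4l2 had 10.61, 10.56 and 12.60 in mutant+CT, against 10.24, 11.30 and 10.41 in wild type. It was lower in mutant+CT on replicate 2 and higher by 2.18 on replicate 3, and its mean of 0.60 ± 1.48 was the highest of the complex I names (limma, adjusted p = 0.675). Its counterpart Ndufa4, counted here in complex I by name although its protein is now known to sit in complex IV, was at 0.23 ± 0.15, higher in mutant+CT on every array (limma, adjusted p = 0.677). Ndufa4l2 minus Ndufa4 averaged 0.37 ± 1.39 (exact permutation p = 0.75). Cox4i2 had 8.02, 7.76 and 7.93 in mutant+CT, against 7.65, 8.16 and 7.63 in wild type, a ratio of 0.09 ± 0.42, and Cox4i1 was at 0.06 ± 0.59. Of 18 other hypoxia response genes, 0 passed the test, and their median was 0.04, with 0.12, -0.35 and 0.31 on the arrays. The smallest p in that list was that of P4ha1, a prolyl hydroxylase of collagen, at -1.10 ± 0.56 (limma, adjusted p = 0.163).

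**Figure D3:**
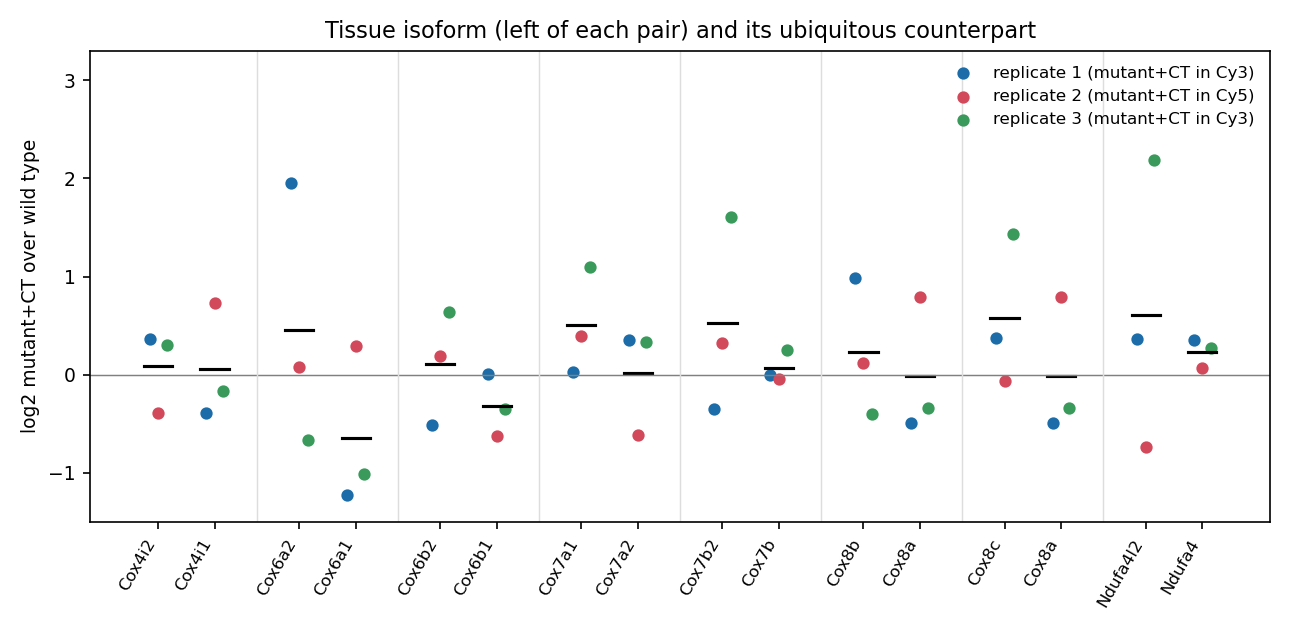
Log2 ratio of mutant+CT over wild type on each array for 8 pairs, each with the tissue form at the left and its ubiquitous counterpart at the right, and the mean as a black bar (Cox8b was mostly not above background). Cox6a2 stands out on replicate 1 at 1.95, and Cox7b2 (1.60), Cox8c (1.43) and Ndufa4l2 (2.18) on replicate 3.

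Beyond the subunits, a form of cytochrome c had the largest mean ratio among all members and the tested genes of the 4 pathway lists. Cyct, the testis form of cytochrome c, was named after its values were seen. It had 10.87, 12.48 and 13.45 in mutant+CT, against 8.74, 8.51 and 8.38 in wild type. All mutant+CT channels lay above all wild-type channels, the ratios were 2.13, 3.98 and 5.07, and the mean of 3.73 ± 1.49 had an adjusted p of 0.0737 in limma. Cycs, the somatic form, had 1 probe at 0.34 ± 0.26 (limma, adjusted p = 0.533) and another at 0.00 ± 0.62.

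Cyct and Cycs were read in a list of 41 cytochrome c and assembly factor genes, of which 40 were tested and 0 passed, where 0.437% of all probes did. The median of the list was -0.08, with -0.12, -0.21 and 0.17 on the arrays, and 7 of the 40 had an unadjusted p under 0.05 in limma, where 16.5% of all probes did. Acad9, an assembly factor of complex I, had the smallest p, with 10.46, 10.77 and 10.96 in mutant+CT, against 8.77, 9.29 and 9.65 in wild type. The groups did not overlap, and the ratio was 1.49 ± 0.19 (limma, adjusted p = 0.0709). Lrpprc, which stabilizes mitochondrial mRNAs, was at 0.85 ± 0.53. The other 4 were lower in mutant+CT on every array at the probe listed. They were Surf1, a complex IV factor whose loss causes Leigh syndrome in humans (-0.83 ± 0.34), the complex I factors Ndufaf3 (-0.84 ± 0.61) and Ndufaf4 (-0.63 ± 0.27), and Bcs1l, which inserts the Rieske protein (-0.61 ± 0.19). Their adjusted p-values in limma lay between 0.190 for Surf1 and 0.267 for Ndufaf4. A second Ndufaf4 probe, measured on replicates 2 and 3 and not tested, was higher in mutant+CT on both, at 0.64 and 0.13.

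Regulators and neighbouring pathways were read from short lists, in which the background of 0.437% gives little room for calls. Of 19 regulators of mitochondrial biogenesis 0 passed, and the median was 0.12, with 0.26, 0.05 and 0.37 on the arrays. Among these the smallest p was that of Gabpb2, a partner of the ETS factor GABP, at 0.62 ± 0.16 (limma, adjusted p = 0.251), and at 1.35 with Agilent's processed signals (adjusted p = 0.0936 in limma). Of 17 genes of the tricarboxylic acid cycle and pyruvate dehydrogenase, 0 passed, and the median was 0.03. There the smallest p was that of Dlat, the transacetylase of pyruvate dehydrogenase, with nearly equal ratios of 0.71, 0.70 and 0.64 (limma, adjusted p = 0.209).

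The arrays did not repeat one another over the oxidative phosphorylation probes. Across the 129 probes, which share their 3 arrays and are not independent, the ratios of replicates 1 and 3 correlated at 0.57 (Pearson), those of replicates 1 and 2 at -0.47 and those of replicates 2 and 3 at -0.38. Across all 26317 probes the values for the same pairs of arrays were 0.56, 0.21 and 0.37. Replicates 1 and 3 had mutant+CT in green and replicate 2 had it in red. As replicate 2 was alone in its orientation, a dye effect and a difference of that replicate cannot be told apart.

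**Figure D4:**
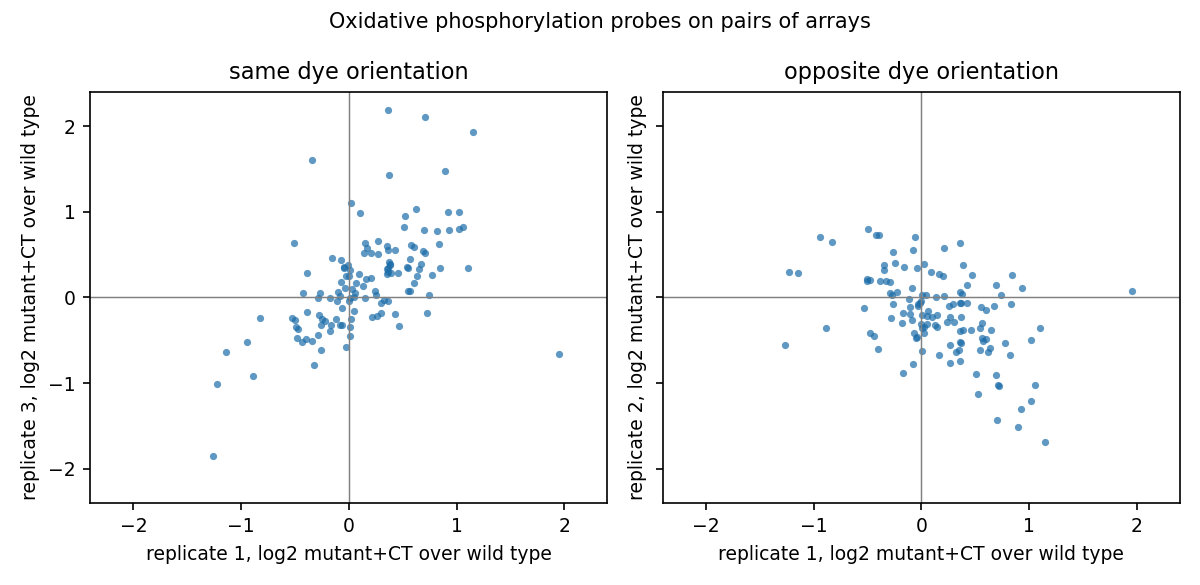
Log2 ratio of mutant+CT over wild type of each tested oxidative phosphorylation probe on replicate 3 (left) and replicate 2 (right) against replicate 1. The points run upward on the left, where the dyes lie the same way (Pearson 0.57), and downward on the right, where they are swapped (Pearson -0.47).

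Read by colour, many of these probes were brighter in the same dye whichever RNA it carried. Of the 129, 51 were brighter in green and 16 brighter in red on every array, 51.9% of members, against 32.8% of all probes and 41.3% of bright ones. Complex V had 17 in green and 5 in red of 31, and complex I had 13 and 4 of 51. The Cox7c probes, chosen for this after their values were seen, are the clearest case. Cox7c A_55_P1999838, with 27 adenines in 60 bases, had ratios of 0.90, -1.51 and 1.47. Cox7c A_55_P2081005, with 25, had 1.15, -1.68 and 1.93. Cox7c A_55_P1999841, with 10, had -0.83, 0.65 and -0.24. The adenine-rich Cox7c probes printed above, which overlap each other, thus gave the higher channel to green each time. The adenine-poor probe of the same gene gave it to red. The means of these Cox7c probes, 0.29 ± 1.58, 0.46 ± 1.90 and -0.14 ± 0.74, were all smaller than their SDs.

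Over the whole group this order was clear at the adenine-rich end and weak at the adenine-poor end. Across the 129 probes the mean green over red ratio correlated with the number of adenines at 0.53 (Spearman) and with the number of cytosines at -0.56, against 0.45 and -0.36 over all tested probes. The points share their arrays, dyes and normalization, and these values are a description. The 34 probes with 21 to 27 adenines had a median log2 green over red ratio of 0.39, and 22 of them were brighter in green and 0 brighter in red on every array. The 10 probes with 8 to 12 adenines had a median of -0.09, with 2 in green and 4 in red on every array. For the 37 probes with 13 to 16 adenines the median was -0.02, with 7 in green and 10 in red. For the adenine-rich class the median mutant+CT over wild type ratio was 0.31, -0.52 and 0.39 on replicates 1, 2 and 3. Whether base composition had a part in any ratio above was not tested beyond these values. With a dye term in limma 0 of all 26317 probes passed, so the count of 0 members says nothing about them. In that fit the ratios of Ndufb11 A_55_P2073582, Sdhaf1 and Atp5g1 A_55_P1956064 were -1.06, -0.63 and 0.56, while that of Ndufa4l2 was 0.27 and that of Atp5s 0.19.

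**Figure D5:**
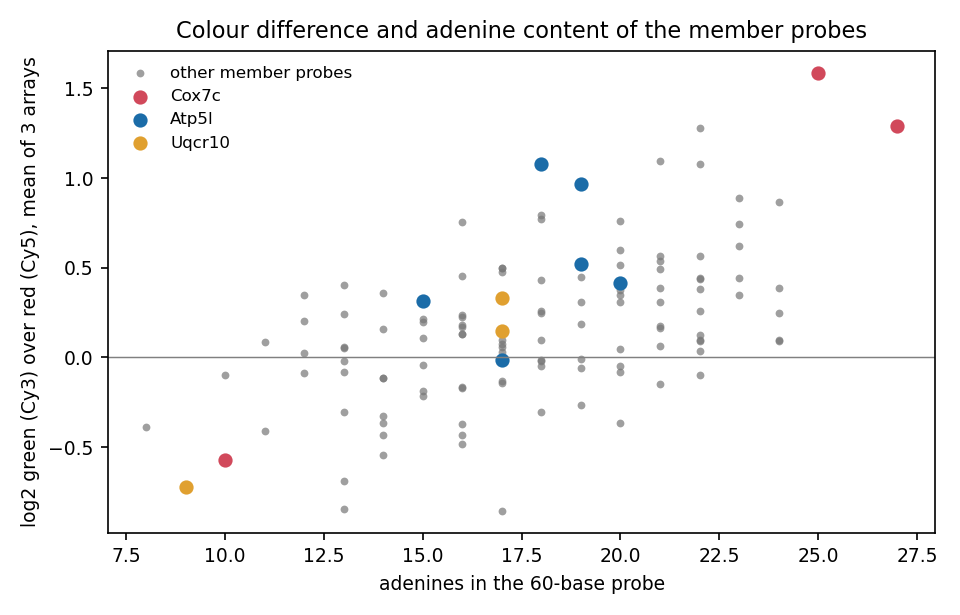
Mean log2 green (Cy3) over red (Cy5) ratio over the 3 arrays against the number of adenines in each 60-base probe, 1 point per tested oxidative phosphorylation probe, with Cox7c, Atp5l and Uqcr10 in colour. The Cox7c probes with 27 and 25 adenines lie at 1.29 and 1.59, and the one with 10 adenines lies at -0.57.

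Promoters were searched for sites of factors known to act on these genes, since nuclear respiratory genes are often controlled through NRF1, GABP (NRF2) and YY1. RefSeq promoters (GRCm38.p6, 250 bases before to 50 after each start) were found for 72 of the genes, 78 promoters in all, of 32851. GCGCATGCG, the core of an NRF1 site, was on either strand in 8 member promoters (10.3%), against 1.75% of all promoters. CCGGAAG, the core of a GABP site, was in 18 (23.1%), against 8.86%, and AAGATGGC, a YY1 site, was in 12 (15.4%), against 2.75%. No match of one motif overlapped one of another in these promoters. These matches are descriptions of the windows, not bound sites. The stretches that hold the motifs (in capitals) are shown for Cox6a1, the lowest complex IV gene, which holds an NRF1 and a GABP motif, and for Atp5k, whose promoter also holds both, although its GABP match lies after the start, outside the stretch shown.
Cox6a1 promoter (chr5:115348959-115349132, minus strand, GRCm38.p6): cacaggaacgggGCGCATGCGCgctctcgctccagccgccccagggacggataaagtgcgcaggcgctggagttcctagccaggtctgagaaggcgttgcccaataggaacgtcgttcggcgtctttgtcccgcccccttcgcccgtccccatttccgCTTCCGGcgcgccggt
Atp5k promoter (chr5:108434428-108434461, minus strand, GRCm38.p6): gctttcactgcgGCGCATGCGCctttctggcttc
By motif, the median ratio was 0.08 for 17 probes with the NRF1 motif and 0.03 for 91 without, 0.04 for 32 with the GABP motif and 0.03 for 76 without, and -0.04 for 16 with the YY1 motif and 0.05 for 92 without.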

How the data were processed

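RNA of day-10 embryoid bodies was measured on 3 two-colour Agilent arrays. Per the file headers, Agilent Feature Extraction 10.7.3.1 wrote the deposited scanner files. The deposited intensity columns give, per the file headers, each spot's mean brightness and the median of its surroundings in both dyes, as scanned, and Agilent's own processed signals. Further columns mark spots that were above background or out of line. The deposited log10 ratio (red over green) was used for 1 purpose, the direction of the value table. That table holds the authors' normalized log2 ratios, made in limma according to the submitters' processing notes. Its columns had medians of -0.02, 0.01 and -0.01 and ran as mutant+CT over wild type. Regressed on the ratios of this report, they gave slopes of 1.03, 0.97 and 0.97 (correlations of 0.994, 0.996 and 0.998), while the exact scaling and centring steps are unknown.

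Computations used limma 3.58.1, statmod 1.5.0 and R 4.3.3. Normexp with an offset of 50 corrected the background, and loess within each array normalized the dyes, control spots having weight 0. Outlier spots were set to missing (1 among the members' spots, with 0 members left on fewer than 3 arrays), replicate spots of a probe were averaged, and ratios were turned to mutant+CT over wild type. All 26317 kept probes were fitted and adjusted together by Benjamini-Hochberg, at adjusted p under 0.05. On simulated data for this comparison, run on 26317 probes with 50 changed per size, the calls numbered 0, 3, 37 and 48 for log2 changes of 1, 2, 3 and 4, and 3 of 26117 unchanged probes were called. A change of 2-fold in 1 probe was thus not detectable by this test. Named by rule were the genes of the isoform pairs and of the c subunit, each complex's highest, lowest and smallest-p probe, genes whose probes differ by over 1, and the smallest-p gene of each pathway list. Isoform pairs used the brightest kept probe. Members, lists and tests were chosen with earlier results of these data known. Through RefSeq, 117 of the 131 probes were named by accession. As alternatives the fit was repeated without background subtraction, on Agilent's processed signals, on the deposited table, with median centring in place of loess, with Aquantile added between arrays, with no filter or one in both channels, with the brightest probe of each gene, with a dye term, with a trended robust prior, at looser thresholds (adjusted p under 0.1, or 2-fold on every array), and without each replicate. Leaving out names that are no subunits was added after the results were seen. The number of arrays limits the precision. The labels call the replicates biological and name no culture for each.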

Additional observations from a re-analysis of the deposited data

How the results depend on the processing

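Of the 129 oxidative phosphorylation probes, 0 passed in limma under every alternative run, while the count over all probes ran between 0 and 739 in limma, against 115 as reported. Members in one direction on every array were 19 of 87 with the brightest probe per gene, against 37.7% of all probes, and between 42 and 97 of 129 with 1 replicate left out. The 97 (75.2%, against 71.4% of all probes) came without replicate 2 and 50 (38.8%, against 55% of all probes) without replicate 1. Members brighter in one colour on every array were 43 of 87 with the brightest probe per gene, against 33.5% of all probes. With 1 replicate left out they were between 79 and 97. Means beyond 0.5 numbered 5 with a dye term and between 7 and 36 with 1 replicate left out, 36 without replicate 2. In the cytochrome c and assembly factor list, 1 of 40 genes passed with Agilent's processed signals, where 2.81% of all probes did. With the trended robust prior 1 passed, where 1.78% of all probes did. At adjusted p under 0.1, 2 passed, where 2.56% of all probes did. In this list 2 were at least 2-fold higher on every array, against 3.02% of all probes at least 2-fold in one direction. With 1 replicate left out between 0 and 1 passed, 1 without replicate 1. With 1 replicate left out, the median of all members ran between -0.040 and 0.16, that of complex I between -0.077 and 0.064, of complex II between -0.13 and 0.15, of complex III between -0.028 and 0.35, of complex IV between -0.013 and 0.34 and of complex V between -0.10 and 0.37, so the sign of each turned with the replicates used. With a dye term the medians of all members and of complex V were -0.027 and -0.046. With 1 replicate left out, the median of the biogenesis regulators ran between -0.061 (without replicate 1) and 0.34 (without replicate 2), and that of the tricarboxylic acid cycle list between -0.076 (without replicate 2) and 0.062. With Agilent's processed signals Cox8c was at 1.59, Cox8c minus Cox8a at 1.57 and Gabpb2 at 1.35. The causes were not tested. The fit is paired as it stands, since each ratio is taken between both RNAs of 1 array, and no further replicate block could be added. Having 3 arrays, with 1 in the opposite dye orientation, limits what small ratios can show.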
